A study of Mus musculus with 12 samples.

Results

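The Ifi200 genes of the mouse were followed in jejunal enteroids that lacked either histone deacetylase, with attention to members that moved in opposite directions in the mutants. The set comprised 6 genes picked by symbol (Mndal, Ifi203, Ifi204, Ifi205, Aim2 and Pyhin1), and 4 of them were present among the 18929 genes listed in the deposited count tables. Ifi205 and Pyhin1 were listed in neither table, which means a summed count of at most 9 over the 8 libraries of each comparison. The set was chosen by the measured values themselves, since Mndal and Ifi203 stood higher in Hdac1-deficient and lower in Hdac2-deficient than in control enteroids. For the members all differences between groups are therefore a description, and no p is given for them. Another 2 family genes that the choice did not name, Mnda and Ifi202b, were listed as well.

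Enteroids are epithelial cultures grown from intestinal crypts. Polyadenylated RNA was sequenced from 12 libraries after 5 days of culture in ENR medium (EGF, Noggin and R-Spondin 1), 4 from villin-Cre controls, 4 from Hdac1-deficient (HDAC1-/-) and 4 from Hdac2-deficient (HDAC2-/-) enteroids. In the mutants, floxed alleles were deleted by Cre under the villin promoter, which is active in intestinal epithelium. The paper calls the controls villin-Cre in its results and wild-type in its methods, so whether they carried the transgene is not certain. The crypts came from 1 mouse per genotype on a mixed C57BL/6J, 129SV and CD1 background, with no age given in the sources used here, so deletion, mouse of origin and enteroid line cannot be told apart and the spread between the 4 libraries of a group may be technical.

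Ifi200 proteins carry a DNA-binding HIN domain, most of them behind a pyrin domain through which they contact other proteins. The genes are known as interferon-inducible and are best studied in immune cells, where several members act as sensors of DNA in the cytosol or nucleus. They lie side by side in a cluster whose gene content and expression are known to vary between inbred strains. Aim2 binds double-stranded DNA in the cytosol and nucleates an inflammasome, whereas the product of Ifi202b lacks the pyrin domain and is known to antagonise Aim2.

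On chromosome 1 of GRCm38, GENCODE M21 placed 14 family genes within 680.931 kb. Aim2 opened the cluster on the plus strand (chr1:173350879-173466040). The other listed genes were on the minus strand, Ifi204 at chr1:173747293-173766943, Mndal at chr1:173849126-173942491, Mnda (named Ifi211 in the annotation) at chr1:173896345-173913046, Ifi203 at chr1:173920407-173942672 and Ifi202b at chr1:173962568-173982744. The annotated span of Mndal covered Mnda and nearly all of Ifi203 on the same strand, although the exons of Mndal and Ifi203 had only 37 bases in common. Sequence was compared within this annotation only, so gene copies that it lacks and the mixed background may hold were not covered. As the reads were 100 nucleotides long, all stretches of that length in the annotated transcripts were compared. In Aim2 and Ifi202b 100% of these windows occurred in no other gene, against 97.2% in Ifi203, 93.6% in Mndal and 89.3% in Ifi204. In Mnda the share was 43.1%, because 37.2% of its windows also occurred in Ifi205, 19.6% in Ifi204 and 6.41% in Mndal, the abundant one of these, so the counts of Mnda were uncertain.

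The promoters of Mndal and Ifi203, the pair with opposite responses, are shown with those of Mnda and Aim2. Mnda had too few reads to tell whether it fell in Hdac2-deficient enteroids, and Aim2 rose in both mutants. Each runs 5′ to 3′ on the strand of its gene, from 250 bases before to 50 bases after a RefSeq transcript start, at chr1:173880138-173880437 (minus strand, Mndal), chr1:173942443-173942742 (minus strand, Ifi203), chr1:173912997-173913296 (minus strand, Mnda, listed by RefSeq as Ifi211) and chr1:173420354-173420653 (plus strand, Aim2) of GRCm38. Capitals mark matches to GAAANNGAA, the core of the interferon-stimulated response element, searched on both strands.
Mndal: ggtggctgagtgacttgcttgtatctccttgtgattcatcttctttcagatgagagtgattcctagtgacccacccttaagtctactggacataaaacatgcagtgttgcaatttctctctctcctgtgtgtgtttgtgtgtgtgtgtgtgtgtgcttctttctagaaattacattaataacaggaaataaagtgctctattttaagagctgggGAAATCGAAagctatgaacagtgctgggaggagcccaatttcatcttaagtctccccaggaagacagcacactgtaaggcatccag
Ifi203: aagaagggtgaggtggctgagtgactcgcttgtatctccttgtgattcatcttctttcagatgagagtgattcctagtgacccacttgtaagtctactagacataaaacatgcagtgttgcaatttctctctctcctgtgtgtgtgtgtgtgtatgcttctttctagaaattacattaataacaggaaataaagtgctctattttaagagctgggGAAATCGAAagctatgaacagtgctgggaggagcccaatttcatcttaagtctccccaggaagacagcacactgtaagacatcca
Mnda: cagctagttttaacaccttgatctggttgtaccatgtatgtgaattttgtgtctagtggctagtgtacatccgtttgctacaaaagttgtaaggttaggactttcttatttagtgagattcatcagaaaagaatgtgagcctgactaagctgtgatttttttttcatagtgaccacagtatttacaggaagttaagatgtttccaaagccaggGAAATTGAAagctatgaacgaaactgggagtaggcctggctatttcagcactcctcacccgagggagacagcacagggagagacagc
Aim2: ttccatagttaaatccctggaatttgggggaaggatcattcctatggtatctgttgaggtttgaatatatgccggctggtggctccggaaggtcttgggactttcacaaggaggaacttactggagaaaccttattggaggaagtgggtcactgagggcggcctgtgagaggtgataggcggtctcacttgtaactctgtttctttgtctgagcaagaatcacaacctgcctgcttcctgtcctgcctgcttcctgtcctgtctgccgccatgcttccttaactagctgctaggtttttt

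The Mndal and Ifi203 promoters were identical at 90.7% of 311 aligned positions. Mndal and Mnda shared 55.0% and Mndal and Aim2 44.4%. The interferon-response core began 36 bases before the start of Mndal, 35 bases before that of Ifi203 and 37 bases before that of Mnda, and the Aim2 window held none. RefSeq gave a further promoter for Mndal (chr1:173879909-173880208), with the core 53 bases before its start, and for Ifi203 (chr1:173942623-173942922), without the core. RefSeq promoters were found for 12 of the 14 family genes, and 9 of those 12 genes had at least 1 promoter with the core. Counted by promoter, 10 of 14 held the core, against 8.56% of all 32851 promoters of this length. Some family promoters are near-copies of one another, as those of Ifi214 and Ifi209 (95.3% identical), so these matches are not separate occurrences. The gamma-activated site, TTCNNNGAA, was present in 1 of the 14 family promoters, that of Ifi202b, and in 8.30% of all promoters, and no family promoter held both motifs. A match is a match of letters only, and binding was not measured here.

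Library totals lay between 20693200 and 30658628 counts, and the floor of detection, set at 3 counts, equalled 0.0979 to 0.145 CPM (counts relative to the TMM-scaled library size). Such floors and all count intervals given here cover counting error only. Each targeted gene was lowest in the libraries labelled as lacking it, although Hdac2 RNA was only partly reduced there. Counts per gene do not tell which exons the reads came from. The paper reported loss of each deacetylase at the RNA and protein levels, by RT-PCR, Western blot and immunofluorescence. Hdac1 fell from 90.6 ± 2.76 CPM (SD, n = 4) among controls to 4.23 ± 0.834 CPM among Hdac1-deficient libraries, with 75.3 ± 4.39 CPM where Hdac2 was deleted. Hdac2 stood at 137.0 ± 3.85, 111.7 ± 3.83 and 75.9 ± 2.89 CPM among control, Hdac1-deficient and Hdac2-deficient libraries. Epithelial identity was evident from Epcam, the epithelial adhesion molecule, at 1243 ± 27.3, 1191 ± 25.5 and 1276 ± 19.3 CPM, and 21 of 21 epithelial markers were listed. Xist, the RNA of the inactive X chromosome, was 1.57 ± 0.174 CPM among controls but 917.2 ± 130.1 CPM where Hdac1 and 584.1 ± 83.0 CPM where Hdac2 was deleted, and is named here after its values were seen. The sex of the mice is not given in the sources used here, and Ddx3y, Eif2s3y, Kdm5d and Uty, genes of the Y chromosome, were listed in neither table. The Xist difference, and any difference in sex between the control and mutant mice, cannot be told apart from the deletions in every comparison with control.

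Mndal, a nuclear HIN-domain protein, showed the widest separation. It was counted 55, 60, 61 and 43 times in the 4 control libraries and 175, 320, 342 and 305 times in Hdac1-deficient libraries. In the 4 Hdac2-deficient libraries it was counted 2, 1, 1 and 0 times, every one below the floor. No library of any group overlapped another group. The control mean was 1.95 ± 0.153 CPM (SD, n = 4), the Hdac1-deficient mean 9.80 ± 2.19 CPM and the Hdac2-deficient mean 0.0403 ± 0.0306 CPM. Against control, the log2 fold change was 2.35 (SE 0.17) in Hdac1-deficient and -5.39 (SE 0.36) in Hdac2-deficient enteroids, the latter a fitted value that rests on 4 reads. The ratio of scaled summed counts of control over Hdac2-deficient libraries was 47.7 (exact 95% interval 18.4 to 176.5).

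Ifi203, whose product is likewise found in the nucleus, had the same order of groups at lower levels. Counts were 14, 22, 16 and 9 in control, 42, 45, 63 and 37 in Hdac1-deficient and 3, 3, 2 and 2 in Hdac2-deficient libraries. The groups did not overlap, and the Hdac2-deficient libraries sat at or below the floor. Mean levels were 0.538 ± 0.172, 1.61 ± 0.318 and 0.103 ± 0.0137 CPM, with log2 fold changes of 1.58 (SE 0.23) for Hdac1-deficient and -2.32 (SE 0.42) for Hdac2-deficient against control enteroids. The count ratio of control over Hdac2-deficient libraries was 5.31 (exact 95% interval 2.70 to 11.6).

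Ifi204, a nuclear and cytosolic DNA sensor, was scarce in all groups. It had 12, 4, 4 and 2 counts in control, 14, 25, 34 and 30 in Hdac1-deficient and 1, 0, 0 and 1 in Hdac2-deficient libraries. After scaling the groups did not overlap, although control replicate 1 at 0.402 CPM lay close to Hdac1-deficient replicate 1 at 0.525 CPM. The log2 fold change for Hdac1-deficient against control was 2.17 (SE 0.38), and 2.84 without that control library. Ifi204 passed the filter on low counts there only with the help of the Hdac1-deficient libraries, so a fitted value had to be a rise. Against Hdac2-deficient libraries Ifi204 fell under the filter on low counts and had no fitted value, and control exceeded them by a count ratio of 9.58 (exact 95% interval 2.35 to 84.0), which is based on 22 and 2 reads.

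Aim2, the cytosolic DNA sensor of the inflammasome, was by far the most abundant member and rose in both mutants rather than in opposite directions. The 4 controls gave 546, 516, 579 and 486 counts. Hdac1-deficient libraries gave 1165, 1365, 1415 and 1307 and Hdac2-deficient libraries 805, 807, 676 and 640. All Hdac2-deficient libraries lay above all controls and below all Hdac1-deficient libraries. Mean levels were 19.0 ± 0.955, 45.4 ± 1.75 and 30.4 ± 2.17 CPM in control, Hdac1-deficient and Hdac2-deficient enteroids. The log2 fold change was 1.27 (SE 0.05) in Hdac1-deficient and 0.69 (SE 0.06) in Hdac2-deficient against control enteroids, the latter below the 2-fold limit.

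**Figure D1:**
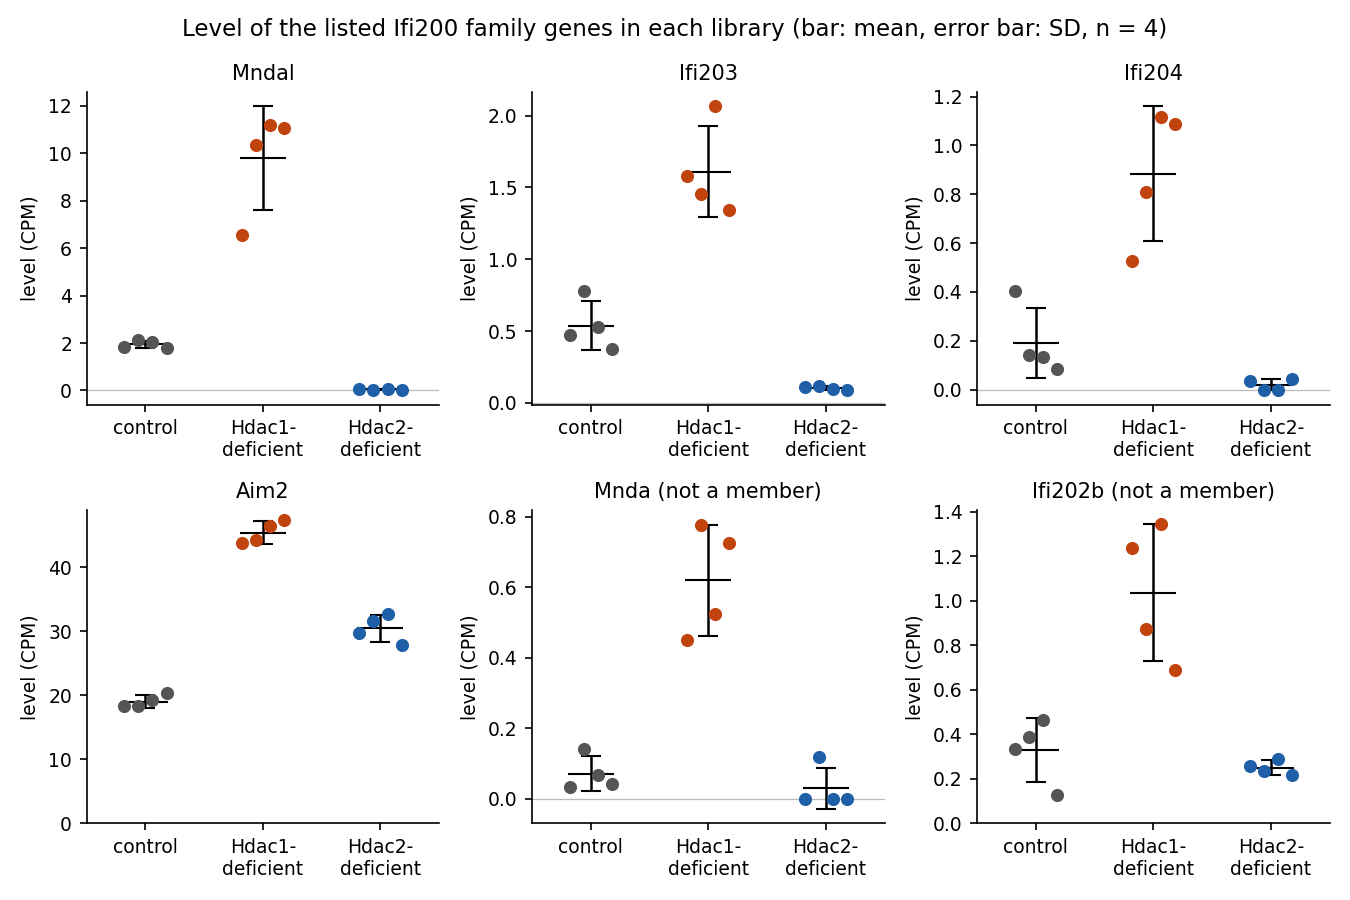
Level in CPM (vertical axis, linear) of the 6 listed Ifi200 family genes in the 3 groups (horizontal axis). Each point is 1 library, the horizontal bar the mean and the error bar the SD (n = 4). Hdac1-deficient libraries are highest in every panel. Hdac2-deficient libraries lie near 0 for Mndal, Ifi203 and Ifi204 but between control and Hdac1-deficient libraries for Aim2.

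A gene was called when edgeR's adjusted p was at most 0.05 and the change exceeded 2-fold. Against control, all 4 listed members passed the filter in Hdac1-deficient enteroids and 4 were called increased, where 6.87% of the 14246 tested genes were called increased and 3.71% decreased. In Hdac2-deficient enteroids 3 passed the filter and 2 were called decreased (Mndal and Ifi203), where 5.45% of 14007 tested genes were called increased and 2.84% decreased. Without control replicate 1, 2 or 3, Ifi203 no longer passed it and 1 member was called. In Hdac2-deficient against control enteroids, Mndal and Ifi203 passed that filter only through the control libraries, so a tested value had to be a difference. In Hdac1-deficient against control enteroids, Ifi204 passed it only with the help of the Hdac1-deficient libraries. Nothing is read from these counts because the set was picked on them. Among the 13851 genes tested in both comparisons, 8 were called increased in Hdac1-deficient and decreased in Hdac2-deficient enteroids and 10 the reverse, with the same 4 control libraries in both comparisons.

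Set directly against each other, the mutants differed at all 4 listed members in 1 direction, which the choice of members fixed for Mndal and Ifi203. For Ifi204 the filter fixed it, since the gene passed only with the help of the Hdac1-deficient libraries. The log2 fold change of Hdac1-deficient over Hdac2-deficient enteroids was 7.74 (SE 0.33) for Mndal, 3.90 (SE 0.33) for Ifi203, 5.14 (SE 0.61) for Ifi204 and 0.58 (SE 0.05) for Aim2. In summed counts the ratio was 243.2 (exact 95% interval 94.7 to 894.0) for Mndal. It was 15.9 (8.47 to 33.8) for Ifi203 and 43.9 (11.8 to 367.1) for Ifi204. Of the 4, 3 were called increased, beside 2.74% of the 14510 tested genes called increased and 2.89% decreased. Aim2 stayed below the 2-fold limit.

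**Figure D2:**
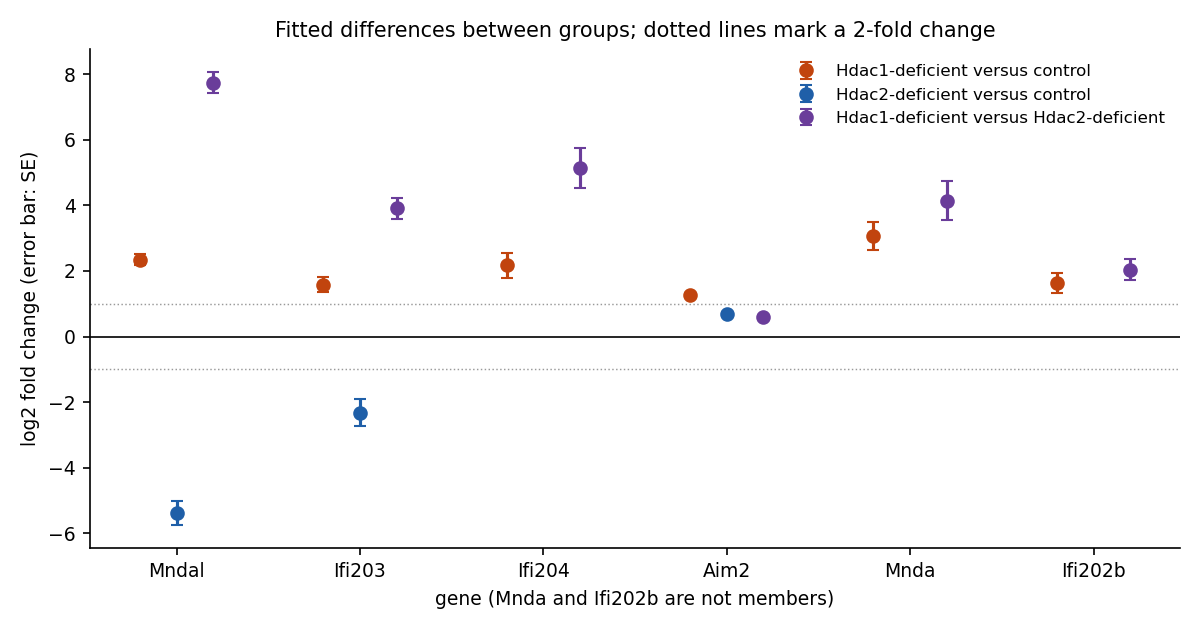
Fitted log2 fold change (vertical axis, error bar SE) of each listed family gene (horizontal axis) in the 3 comparisons, shown by colour, and a missing point means that the gene did not pass the filter. Mndal and Ifi203 lie above 0 in Hdac1-deficient and below 0 in Hdac2-deficient against control enteroids, whereas Aim2 lies above 0 in both.

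Mnda and Ifi202b were outside the set. Both passed the filter on low counts only with the help of the Hdac1-deficient libraries, where they are high, so a fitted value had to be a rise there, and their values are likewise a description with no p. Mnda had 1, 4, 2 and 1 counts in control, 12, 24, 16 and 20 in Hdac1-deficient and 0, 3, 0 and 0 in Hdac2-deficient libraries. Its fitted log2 fold change for Hdac1-deficient against control was 3.06 (SE 0.43), and the groups did not overlap, with the doubt that its sequence shares windows with Ifi204, Mndal and the unlisted Ifi205. Ifi202b, the antagonist of Aim2, had 10, 11, 14 and 3 counts in control, 33, 27, 41 and 19 in Hdac1-deficient and 7, 6, 6 and 5 in Hdac2-deficient libraries. Its log2 fold change in Hdac1-deficient enteroids was 1.62 (SE 0.31), again without overlap of these groups.

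Where Hdac2 was deleted, neither Mnda nor Ifi202b passed the filter, and their libraries overlapped the controls. The count ratio of control over Hdac2-deficient libraries was 1.38 (exact 95% interval 0.806 to 2.403) for Ifi202b and 2.32 (0.557 to 13.6) for Mnda. A fall of the size seen for Mndal lay outside the interval of Ifi202b, whose 24 reads in Hdac2-deficient libraries compared with 4 for Mndal. Directly between the mutants, the log2 fold change of Hdac1-deficient over Hdac2-deficient was 4.13 (SE 0.59) for Mnda and 2.04 (SE 0.33) for Ifi202b, again fitted only with the help of the Hdac1-deficient libraries. For Mnda it was 7.09 without Hdac2-deficient replicate 2, the only library of that group with reads of the gene.

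Levels were compared between genes only per kb of annotated exon. In control, Aim2 reached 5.43 ± 0.273 CPM per kb (SD, n = 4) and Mndal 0.536 ± 0.0421 CPM per kb. Ifi202b followed at 0.194 ± 0.0857, Ifi203 at 0.0803 ± 0.0256, Ifi204 at 0.0534 ± 0.0404 and Mnda at 0.0396 ± 0.0275 CPM per kb. Aim2 and Mndal stood apart from all others, while each neighbouring pair from Ifi202b down overlapped over the libraries.

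In Hdac1-deficient enteroids Aim2 (12.97 ± 0.501 CPM per kb) and Mndal (2.70 ± 0.603 CPM per kb) again led without overlap, and the neighbours among Ifi202b, Mnda, Ifi204 and Ifi203 overlapped between 0.611 and 0.240 CPM per kb. The order differed in Hdac2-deficient enteroids, where Ifi202b came next after Aim2 (8.69 ± 0.619 CPM per kb) with 0.147 ± 0.0187 CPM per kb. Mndal dropped to 0.0111 ± 0.00844 CPM per kb there, where its neighbours Ifi203 and Ifi204 overlapped it.

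**Figure D3:**
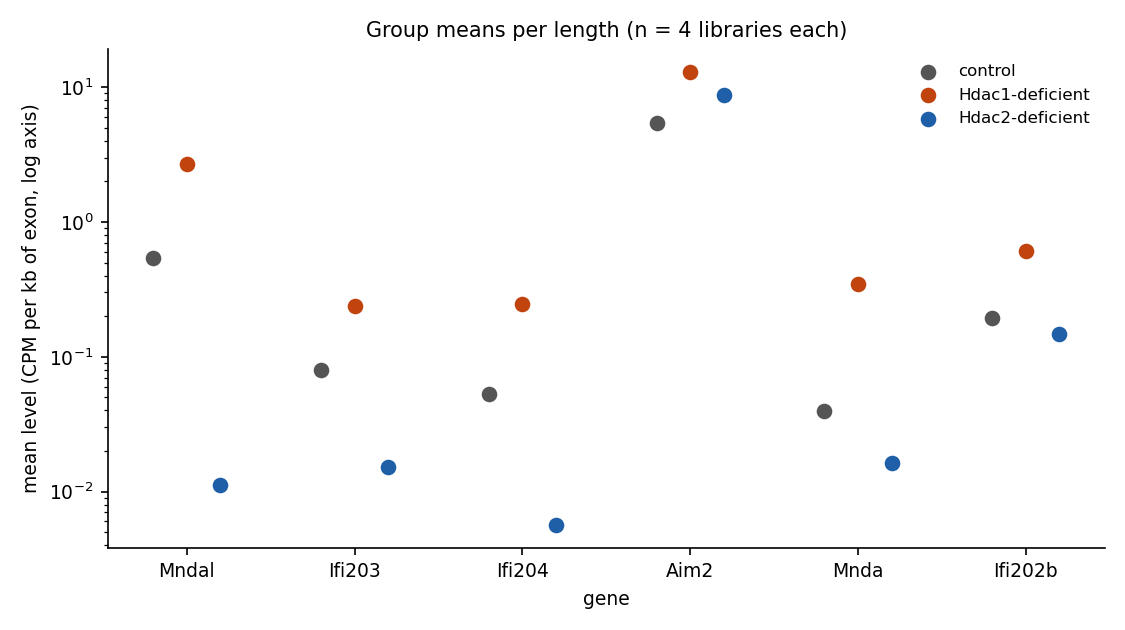
Mean level in CPM per kb of exon (vertical axis, log scale) of each listed family gene (horizontal axis) in the 3 groups, as points of 3 colours (n = 4 libraries each). Aim2 is highest in all groups, at 5.43 to 12.97 CPM per kb, and Mndal takes the next place in control and Hdac1-deficient but not in Hdac2-deficient enteroids.

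Genes around the cluster were listed sparsely, 12 of 67 annotated within 1000 kb on either side. In Hdac1-deficient enteroids 9 of these were tested, 4 were called increased and 1 decreased, and their median log2 fold change was 0.60. Of the 8 tested with Hdac2 deleted, 2 were called, both increased, with a median of 0.19. Over all tested genes 6.87% were called increased and 3.71% decreased in Hdac1-deficient enteroids. The shares were 5.45% and 2.84% in Hdac2-deficient enteroids, and the median over all tested genes was -0.004 in both. Mptx2, a mucosal pentraxin gene whose midpoint lay at -74.8 kb from the start of Aim2, rose in both mutants, by 1.71 (SE 0.06, edgeR adjusted p = 4.7e-15) in Hdac1-deficient and 2.97 (SE 0.04, adjusted p = 2.0e-22) in Hdac2-deficient enteroids on the log2 scale. Mptx2 thus had its highest mean, 178.2 CPM against 74.3 CPM with Hdac1 deleted and 22.9 CPM for controls, where Mndal and Ifi203 were lowest.

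At the far side of the cluster, Mptx1, also a mucosal pentraxin, rose by 1.42 (SE 0.06, edgeR adjusted p = 5.1e-12) in Hdac1-deficient enteroids, and its log2 fold change in Hdac2-deficient enteroids was -0.12 (SE 0.05, adjusted p = 0.051). The other flanking genes called lay before the cluster, at -961.3 to -802.7 kb. In Hdac1-deficient enteroids these were Igsf9, which encodes an immunoglobulin-superfamily adhesion protein (1.03, SE 0.06, edgeR adjusted p = 8.0e-10), the non-coding 4933439K11Rik (2.48, SE 0.39, fitted only through the Hdac1-deficient libraries) and Gm37145 (-1.01, SE 0.21, adjusted p = 2.9e-04). In Hdac2-deficient enteroids it was Slamf9, a SLAM-family receptor gene (1.51, SE 0.11, edgeR adjusted p = 2.3e-10). None of the 8 tested flanking genes was called decreased in Hdac2-deficient enteroids. Nothing is read from this, since only 2.84% of all tested genes were. The lowest, Gm37145, lay just short of the 2-fold limit at -0.98 (SE 0.23, edgeR adjusted p = 0.0010).

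**Figure D4:**
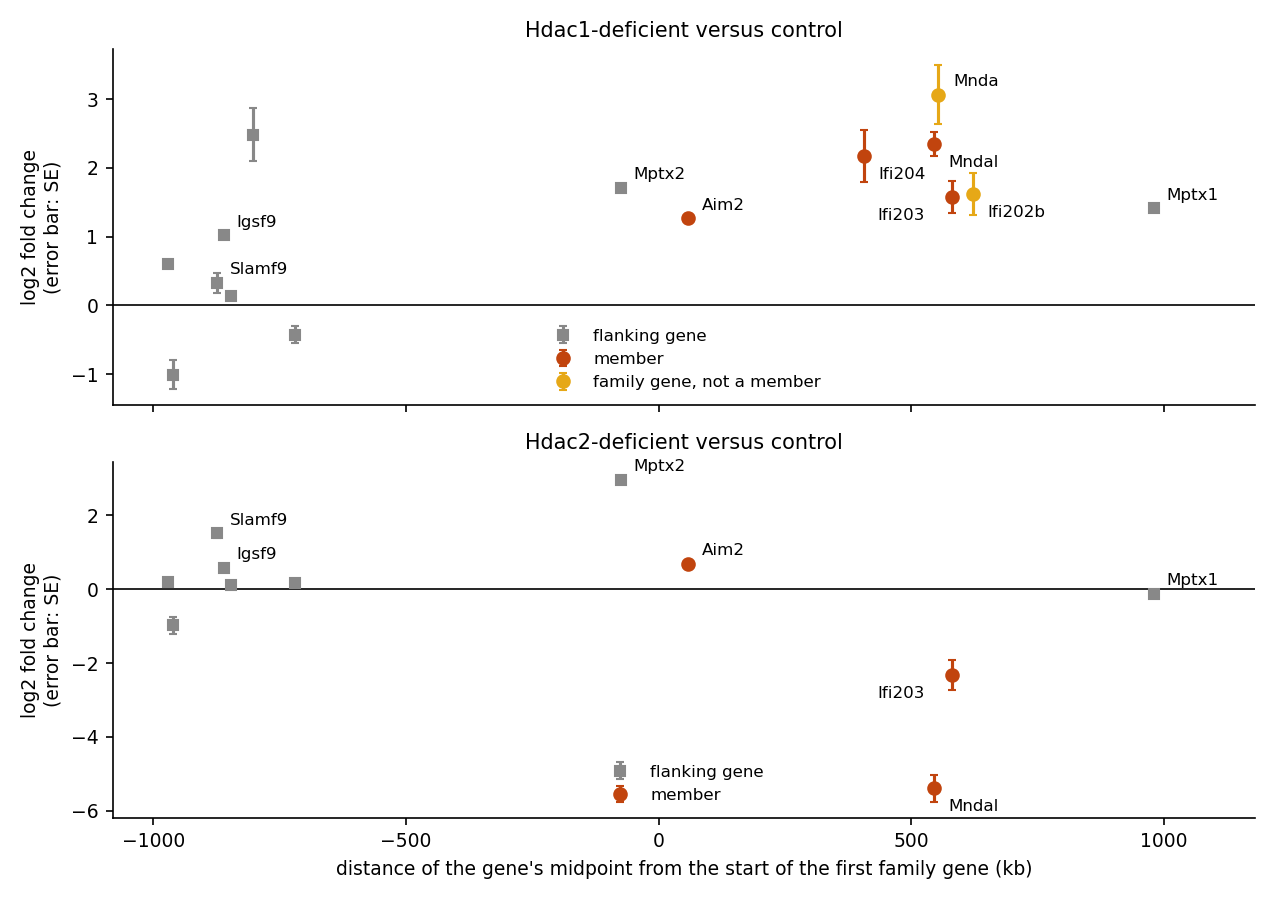
Log2 fold change against control (vertical axes, error bar SE) by distance of the gene's midpoint from the start of the first family gene in kb (horizontal axis), for Hdac1-deficient (upper panel) and Hdac2-deficient enteroids (lower panel). Squares are flanking genes and circles family genes. Mptx2 and Aim2 lie above 0 in both panels, and Mndal and Ifi203, further into the cluster, lie above 0 only in the upper one.

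Interferon signalling was considered next because the family is interferon-inducible. Of 20 tested genes for interferon receptors and their signalling, edgeR called 0 in either direction in either mutant, also 0 at an unadjusted p under 0.05 with the same fold limit, and DESeq2, run without that filter on low counts, called 1 increased in each, Usp18, which removes Isg15 from proteins. The median log2 fold change was 0.19 where Hdac1 and 0.29 where Hdac2 was deleted. Stat2, a transcription factor of type I signalling, gave 0.12 (SE 0.05, edgeR adjusted p = 0.055) and 0.38 (SE 0.06, adjusted p = 5.4e-06) in the same order. Irf7, which amplifies type I interferon, changed by 0.47 (SE 0.06, edgeR adjusted p = 9.9e-07) and 0.81 (SE 0.06, adjusted p = 7.1e-11). Irf9, a DNA-binding partner of Stat2, changed by 0.63 (SE 0.08, edgeR adjusted p = 1.3e-06) and 0.83 (SE 0.08, adjusted p = 1.1e-08). These 3 values were larger in the second mutant and all were below 2-fold, and directly between the mutants Irf7 was lower in Hdac1-deficient by a log2 fold change of -0.34 (SE 0.05, adjusted p = 9.3e-06).

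Among interferon-induced genes outside the family, those that passed the filter on low counts moved mostly one way in both mutants. In Hdac1-deficient enteroids 10 of 36 tested were called increased and 1 decreased (median log2 fold change 0.66), and in Hdac2-deficient enteroids 14 of 38 were called increased and 1 decreased (median 0.67). Over all tested genes 6.87% were called increased and 3.71% decreased in the first, and 5.45% and 2.84% in the second mutant. Oas1a, an enzyme that makes the activator of RNase L, rose by 3.00 (SE 0.14, edgeR adjusted p = 3.5e-13) and 2.86 (SE 0.15, adjusted p = 5.7e-13). Oas1g of the same family averaged 0.0104 ± 0.0209 CPM (SD, n = 4) for controls, 1.09 ± 0.0808 CPM with Hdac1 deleted and 0.918 ± 0.203 CPM with Hdac2 deleted. Isg15, a ubiquitin-like modifier, rose by 2.02 (SE 0.24) and 1.87 (SE 0.32) and is named here after its values were seen. Like Oas1g, Isg15 passed the filter on low counts only with the help of the mutant libraries. A fitted value for either gene had to be a rise, and no p is given. In Hdac1-deficient enteroids the same held for Igtp (0.195 CPM in control) and Mx2 (0.324 CPM in control), both called increased. The calls and medians of this list include such genes and so lean towards a rise, and nothing is read from their size. Ifitm3, which restricts viral entry, fell in both mutants, by a log2 fold change of -1.18 (SE 0.06, edgeR adjusted p = 2.1e-10) in Hdac1-deficient and -1.25 (SE 0.04, adjusted p = 1.2e-16) in Hdac2-deficient enteroids.

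Directly between the mutants, 1 of 40 tested interferon-induced genes was called higher and 3 lower in Hdac1-deficient enteroids, with a median of -0.01, and with 2.74% and 2.89% of all tested genes called so, nothing is read from these few calls. Psmb8, an immunoproteasome subunit, was the one called higher, by 1.49 (SE 0.11, edgeR adjusted p = 7.6e-12), and unlike Mndal it was above control in both mutants, at means of 0.747 ± 0.155 CPM for controls, 8.92 ± 0.751 CPM with Hdac1 deleted and 3.17 ± 0.353 CPM with Hdac2 deleted. Those called lower were the chemokine Cxcl10 (-1.97, SE 0.38), Ifi44 (-1.79, SE 0.45) and Oas3 (-1.22, SE 0.29). These 3 passed the filter only with the help of the Hdac2-deficient libraries, where they are high, so no p is given for them.

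Aim2 signals through the inflammasome, and other genes of that machinery were examined beside it. Of 14 tested inflammasome and pyroptosis genes, 2 were called in each mutant, both increased, with medians of 0.43 where Hdac1 and 0.34 where Hdac2 was deleted. The called genes were Il18, a cytokine matured by caspase-1 (2.15, SE 0.06, edgeR adjusted p = 7.1e-17, and 2.26, SE 0.07, adjusted p = 8.9e-17), and Nlrp1b, a sensor of bacterial toxin. Nlrp1b averaged 0.0250 ± 0.0318 CPM (SD, n = 4) for controls, 4.50 ± 0.412 CPM with Hdac1 deleted and 8.79 ± 1.13 CPM with Hdac2 deleted, so it was nearly absent from one group as Mndal was, though from another one. Nlrp1b was fitted only with the help of the mutant libraries, where it is high.

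Pycard, the adaptor that joins Aim2 to caspase-1, was abundant at 152.6 ± 6.36 CPM in control and changed by 0.63 (SE 0.04, edgeR adjusted p = 7.6e-12) in Hdac1-deficient and 0.29 (SE 0.03, adjusted p = 6.7e-08) in Hdac2-deficient enteroids, the same order of mutants as Aim2. Casp1, the inflammasome protease, changed by 0.20 (SE 0.04, edgeR adjusted p = 1.7e-04) and 0.23 (SE 0.05, adjusted p = 2.3e-04). Gsdmd, which forms the pyroptotic pore, changed by 0.45 (SE 0.05, edgeR adjusted p = 9.0e-08) and 0.88 (SE 0.03, adjusted p = 5.9e-16), the reverse order. These changes were all below 2-fold.

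The cytosolic DNA-sensing genes, the pathway of Ifi204, were mostly not called. Of 22 tested, 1 was called increased in Hdac1-deficient enteroids (Ikbke, a kinase that activates interferon regulatory factors, 1.17, SE 0.06, edgeR adjusted p = 1.9e-11) and 1 decreased in Hdac2-deficient enteroids (Rnaseh2c, a subunit of RNase H2, -1.05, SE 0.05, adjusted p = 2.4e-12). Nothing is read from these calls, since over all tested genes 6.87% were called increased in Hdac1-deficient and 2.84% decreased in Hdac2-deficient enteroids. The medians were -0.15 and -0.14. Mb21d1, the sensor cGAS, changed by -0.26 (SE 0.06, edgeR adjusted p = 0.0014) in Hdac1-deficient and -0.41 (SE 0.06, adjusted p = 9.3e-06) in Hdac2-deficient enteroids. Tmem173, its adaptor STING, changed by -0.52 (SE 0.07, edgeR adjusted p = 9.5e-07) and -0.84 (SE 0.07, adjusted p = 1.5e-09). Both lay below control in either mutant. Ifi204 had more reads than control in the one and fewer in the other, but the filter fixed its fitted rise. Its level in Hdac2-deficient libraries lay below the floor of detection and had no fitted value, so nothing is read from this contrast.

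**Figure D5:**
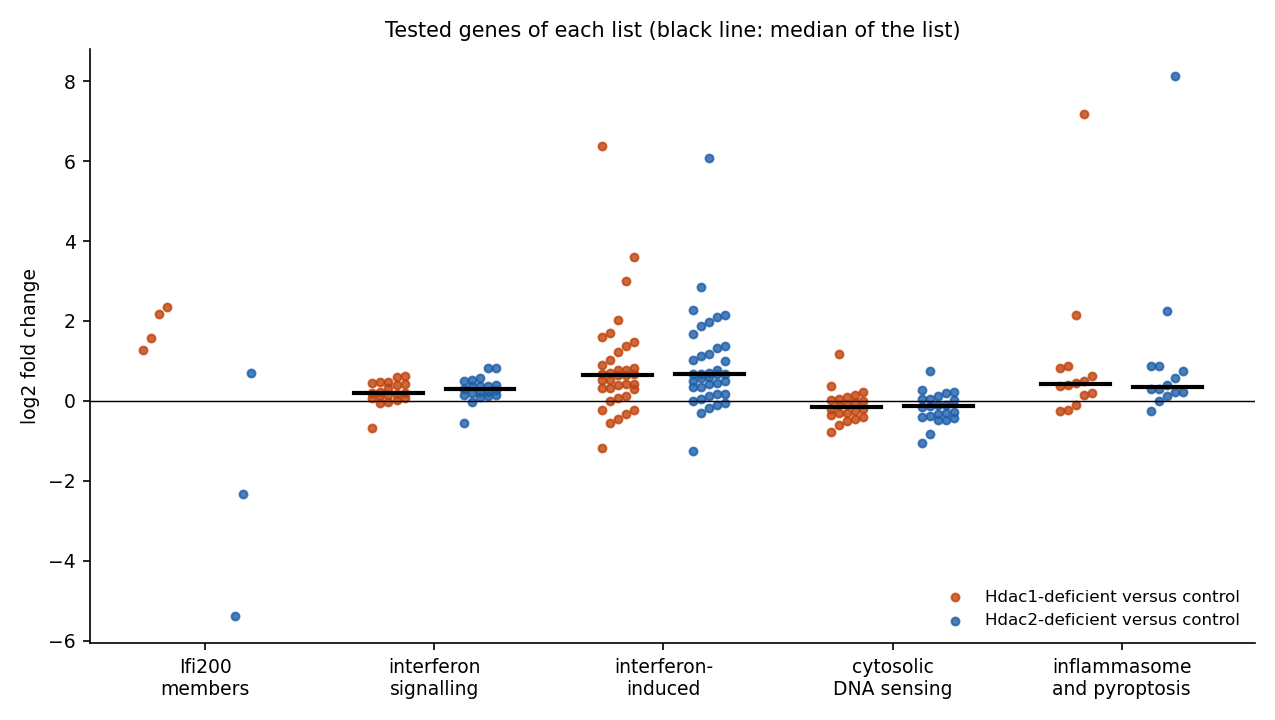
Log2 fold change against control (vertical axis) of each tested gene of the Ifi200 members and of 4 lists (horizontal axis), in Hdac1-deficient and Hdac2-deficient enteroids, by colour. Each point is 1 gene and the black line is the median of a list, 0.66 and 0.67 for interferon-induced genes. The members spread from -5.39 to 2.35, and Nlrp1b is the highest point in the last column.

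Since the family is most abundant in immune cells, immune markers were counted in every library. Of 25 markers 8 were listed, and their summed level was 29.8 to 32.5 CPM for controls, 26.0 to 26.5 CPM with Hdac1 deleted and 29.4 to 34.2 CPM with Hdac2 deleted, most of it Cd14 (27.5 ± 1.05 CPM in control). Ptprc, which encodes the pan-leukocyte antigen CD45, had at most 4 counts in any library, and the lymphocyte genes Cd3e and Cd79a were not listed. Among single markers Csf1r, the macrophage growth factor receptor, averaged 0.412 ± 0.197, 0.729 ± 0.0629 and 0.146 ± 0.0773 CPM in control, Hdac1-deficient and Hdac2-deficient enteroids, the same order of means as Mndal. Directly between the mutants its log2 fold change was 2.29 (SE 0.39), but it was not called in Hdac1-deficient against control enteroids (0.81, SE 0.29), with 6 to 20 counts in control and 20 to 22 in Hdac1-deficient libraries. Csf1r passed the filter in both comparisons only with the help of the Hdac1-deficient libraries, where it is high, so no p is given. Itgam, a myeloid integrin, rose in both mutants instead (1.28, SE 0.19, edgeR adjusted p = 9.0e-06, and 1.69, SE 0.19, adjusted p = 8.5e-08), as did the B-cell receptor gene Cd79b (2.18, SE 0.22, adjusted p = 4.9e-08, and 1.60, SE 0.26, adjusted p = 1.7e-05). Laptm5, a lysosomal protein of leukocytes, rose in Hdac2-deficient enteroids to 0.577 ± 0.242 CPM from 0.237 ± 0.118 CPM (1.27, SE 0.40). It was fitted there only with the help of the Hdac2-deficient libraries, so no p is given. The part of such cells in the values of the members was not tested, and in bulk RNA a change in the number of cells of a type and in RNA per cell cannot be told apart.

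Epithelial and stromal markers were described in the same way. Of 21 epithelial markers, Lyz1, the Paneth cell lysozyme, rose in both mutants (1.26, SE 0.05, edgeR adjusted p = 1.4e-11, and 1.16, SE 0.06, adjusted p = 8.5e-09), and Olfm4, a stem cell marker, fell in Hdac2-deficient enteroids (-1.23, SE 0.04, adjusted p = 3.6e-14). No other epithelial marker was called against control. Of 12 stromal and endothelial markers 6 were listed, with a summed level of 6.33 to 8.35 CPM over all libraries, and edgeR called 0 of those tested, as it did at an unadjusted p under 0.05 with the same fold limit and as did DESeq2.

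Genes with patterns most like those of the members were found by Pearson's r of log2 CPM over the 12 libraries, which form 3 groups, so that r mainly reflects the order of the group means and carries no p. Closest to Mndal among the 14509 other genes tested in the comparison of the mutants were Gsta1, a glutathione transferase (r = 0.99), Gstt1 (0.99), Adck3 (0.99), the Toll-like receptor Tlr1 (0.98) and Map9 (0.98). Tlr1 averaged 8.49 ± 0.382 CPM for controls, 15.6 ± 0.488 CPM with Hdac1 deleted and 1.35 ± 0.262 CPM with Hdac2 deleted. Ifi203 ranked at place 9 for Mndal (r = 0.98), Ifi204 at 121 (r = 0.92), Mnda at 448 (r = 0.83), Ifi202b at 843 (r = 0.75) and Aim2 at 4270 (r = 0.31).

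For Ifi203 the closest gene was Adck3 (r = 0.98), followed by Mndal (0.98), the potassium channel Kcnj2 (0.98), the death ligand Tnfsf10 (0.97) and Rassf4 (0.97). Aim2 followed another set, Igf2bp3, an RNA-binding protein (r = 0.99), the protease Prss30 (0.99), Npl (0.99), the cell-cycle factor E2f2 (0.99) and Erdr1 (0.99). E2f2 stood at 39.2 ± 1.26, 96.7 ± 4.89 and 65.1 ± 1.79 CPM in control, Hdac1-deficient and Hdac2-deficient enteroids, the order of Aim2. The high r between Mndal and Ifi203 restates the choice of the set, for which their shared pattern was used.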

How the data were processed

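RNA-Seq of 12 enteroid libraries (4 control, 4 Hdac1-deficient, 4 Hdac2-deficient, grouped by their labels) was used. The authors prepared directional poly(A) libraries, aligned paired reads to GRCm38 with STAR (2.4.0f1 in the submitters' processing notes) and deposited whole-number counts per gene, listing genes whose counts summed to 10 or more, in 1 table per mutant with identical control counts. The counting program is not given in the sources used here. The deposited fold changes, p-values and 16 columns of normalized values were not used.

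Counts were tested with edgeR (4.0.16, R 4.3.3): TMM factors (0.980 to 1.02), filterByExpr, quasi-likelihood F test with robust estimates, Benjamini-Hochberg adjustment over all tested genes. SE is the log2 fold change divided by the square root of F. Each mutant was compared with control in 8 libraries, and the mutants in a fit of all 12. Library totals of 20693200 to 30658628 counts set the precision. Count ratios are summed counts scaled by library size, with exact 95% intervals. The fits were tested on simulated counts.

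Members and gene lists were chosen with earlier results of these data known. Named were all members, every other listed family gene, per list up to 3 called genes per direction with the largest changes plus preset genes of each pathway (1 is not reported here), called flanking genes, and the 5 genes with the highest r to Mndal, Ifi203 and Aim2 (log2 CPM, prior count 2). Annotation was GENCODE M21, which held 18817 of 18929 identifiers, and promoters came from RefSeq (GRCm38.p6). Alternatives were DESeq2 (1.42.0), other scalings, no filter, other sets of libraries, the replicate number as a block, each library left out, and the longest transcript as length. Figures used Python 3.11.15 and matplotlib 3.10.9.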

Additional observations from a re-analysis of the deposited data

Results flagged for a closer look

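In the Hdac2-deficient group, the level of Mnda in replicate 2 was 0.117 CPM, from 3 counts, while the other 3 libraries had 0. The gap to the nearest library made up the whole range (a ratio of 1, above the Dixon limit for 4 samples). Among 18 groups tested for a library apart, 1 was marked in this way. For continuous values chance marks about 1 in 20 groups. That rate does not apply here, since reads in 1 library alone always give a ratio of 1, and nothing is read from the mark.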

How the results depend on the processing

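The listed members kept their direction under all 14 alternatives wherever they could be fitted. In Hdac1-deficient against control enteroids the log2 fold change ranged from 2.28 to 2.49 for Mndal, 1.43 to 1.80 for Ifi203, 1.97 to 2.84 for Ifi204 and 1.25 to 1.30 for Aim2. In Hdac2-deficient against control enteroids it ranged from -5.85 to -5.04 for Mndal and from 0.66 to 0.72 for Aim2, and for Ifi203, fitted under 11 alternatives, from -2.45 to -2.26. Leaving out Hdac2-deficient replicate 1 or 4 gave -5.85 and -5.04 for Mndal against control. With 1 library left out, 1 to 2 members were called decreased in Hdac2-deficient enteroids, since without control replicate 1, 2 or 3 Ifi203 did not pass the filter. DESeq2 called 4 flanking genes increased in Hdac2-deficient enteroids where edgeR called 2, the others being Crp and 4933439K11Rik, which edgeR's filter left out, and it also called Csf1r decreased there. With DESeq2, without the filter, or with all 12 libraries in 1 fit, 3 members were called decreased there, since Ifi204 was then fitted, at -3.20 to -2.96, Mnda at -1.21 to -1.08 and Ifi202b at -0.43 to -0.41. Without the filter, which tests more genes, 1581 genes were called increased in Hdac1-deficient enteroids, and 1170 were called increased and 622 decreased in Hdac2-deficient enteroids. Mnda directly between the mutants ranged from 3.71 to 7.09, the latter when the 1 Hdac2-deficient library with reads was left out. Per kb of the longest transcript, Mndal averaged 0.960 CPM for controls, 4.84 CPM with Hdac1 deleted and 0.0199 CPM with Hdac2 deleted.

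The replicate numbers did not pair the libraries. Same-numbered libraries correlated at -0.06 to 0.11 over the 3 comparisons, and 2, 2 and 4 of 8 libraries correlated best with their own number. With the replicate block, 978 genes were called increased and 523 decreased in Hdac1-deficient, 763 and 395 in Hdac2-deficient against control, and 393 and 419 between the mutants, with 4, 2 and 3 members called, and the block changed no call of a member.

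Depth limits the Hdac2-deficient values of Mndal, Ifi203, Ifi204 and Mnda, which are at or under 3 counts a library, so that the size of a fall, though not its counts, is poorly determined. All groups derive from 1 mouse each.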
